A study of Homo sapiens with 12 samples.

Results

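The data describe 10 genes whose transcripts are widely used to place a cell between an epithelial and a mesenchymal state: CDH1, CDH2, EPCAM, KRT19, VIM, FN1, SNAI2, TWIST1, ZEB1 and ZEB2. They were found by their gene name among the gene probes of the array, which holds 29123 gene names in all. The 10 genes carry 17 probes, each a DNA strand of 60 bases, and 14 of these probes, with at least 1 for every gene, were detected well enough to be tested.

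RNA came from HuH-7, an established human hepatocellular carcinoma line, so every group shares the line's mutant p53, Y220C. Cells were exposed for 24 h to 28 µM SLMP53-2, to 42 µM SLMP53-2 or to the solvent DMSO alone, and 4 biological replicates per condition were hybridised to 12 one-colour Agilent arrays. SLMP53-2 is a small molecule studied for its action on mutant p53. The higher dose is called 42 µM here, although some label fields give another number for those arrays.

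Epithelial cells are joined to their neighbours by E-cadherin junctions and carry keratin filaments. In an epithelial-mesenchymal transition the repressors of the SNAI, TWIST and ZEB families lower E-cadherin, while N-cadherin, vimentin and fibronectin become more abundant. Liver is a special case, since hepatocytes carry both E-cadherin and N-cadherin, and EPCAM and KRT19 belong to bile duct and progenitor cells and to some hepatocellular carcinomas.

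The probes that span exon junctions are shown because VIM and FN1 have more than 1 tested probe. The measured changes of the FN1 probes were not all alike, a difference that was not tested. All are written 5′ to 3′ as deposited, in lower case with no part marked, with hg19 positions that run over the intron between the joined exons.
VIM A_23_P161190, chr10:17278347-17279256, plus strand: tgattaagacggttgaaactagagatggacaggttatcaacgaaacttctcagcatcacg
FN1 A_24_P334130, chr2:216288217-216288895, minus strand: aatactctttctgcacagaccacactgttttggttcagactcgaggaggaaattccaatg
FN1 A_24_P85539, chr2:216235126-216236661, minus strand: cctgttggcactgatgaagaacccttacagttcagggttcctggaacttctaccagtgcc
FN1 A_24_P119745, chr2:216226332-216226733, minus strand: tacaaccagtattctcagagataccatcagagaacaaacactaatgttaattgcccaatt
Along FN1, which is read from the minus strand, A_24_P334130 lies nearest the start of the gene and A_24_P119745 nearest its end.

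Per array, 65.0% to 85.0% of the gene spots were well above background, and no gene spot was saturated. As a check of the label, all 14 hepatocyte genes looked at, among them those for albumin and the apolipoproteins, were detected on 4 of 4 DMSO arrays. Of 15 genes of fibroblasts, endothelium and leukocytes, 13 were detected on 4 of 4 DMSO arrays and PTPRC, the pan-leukocyte marker, on none. Some of these genes were dim, with DMSO means of 6.12 for COL1A1 and 6.36 for COL3A1, near the 6.24 of the ZEB2 probe A_23_P142560. Detection therefore does not show that such cells were present. COL1A2, at 10.12, was the brightest and weighs most in the sum of these 15 genes. The log2 of the summed level of these 15 genes lay between 11.39 and 11.52 in the DMSO group, between 11.22 and 11.52 in the 28 µM group and between 11.32 and 11.44 in the 42 µM group, so the groups overlapped. The array 28 µM replicate 4 stood apart from its group. Over the 885 probes that changed at 42 µM, its median shift was 14.2% of the 42 µM change, whereas the other 28 µM arrays were at 75.1% to 97.4%. Where leaving it out ended an overlap or made a call for a member, the value without it is given. The array was singled out by its small shift in these same data, so values without it are descriptions and add no support.

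Values are log2 normalized intensities, differences are log2 changes with the standard error (SE) of the fit, and a probe is called when limma's adjusted p is below 0.05 and the log2 change is at least 0.6. At 42 µM 885 of 33467 tested probes were called against DMSO, or 2.64%, with 472 higher and 413 lower. At 28 µM 0% were called, and 0% between the doses. None of the 14 member probes was called in any of the 3 comparisons. By an unadjusted p below 0.05 with the same limit on the change, CDH1 passed against DMSO at both doses and no other member did, where 2.38% of all probes passed at 28 µM and 5.02% at 42 µM. Between the doses no member passed that rule and 0.284% of all probes did. In bulk RNA, less transcript per cell and fewer cells of a type cannot be told apart.

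**Figure D1:**
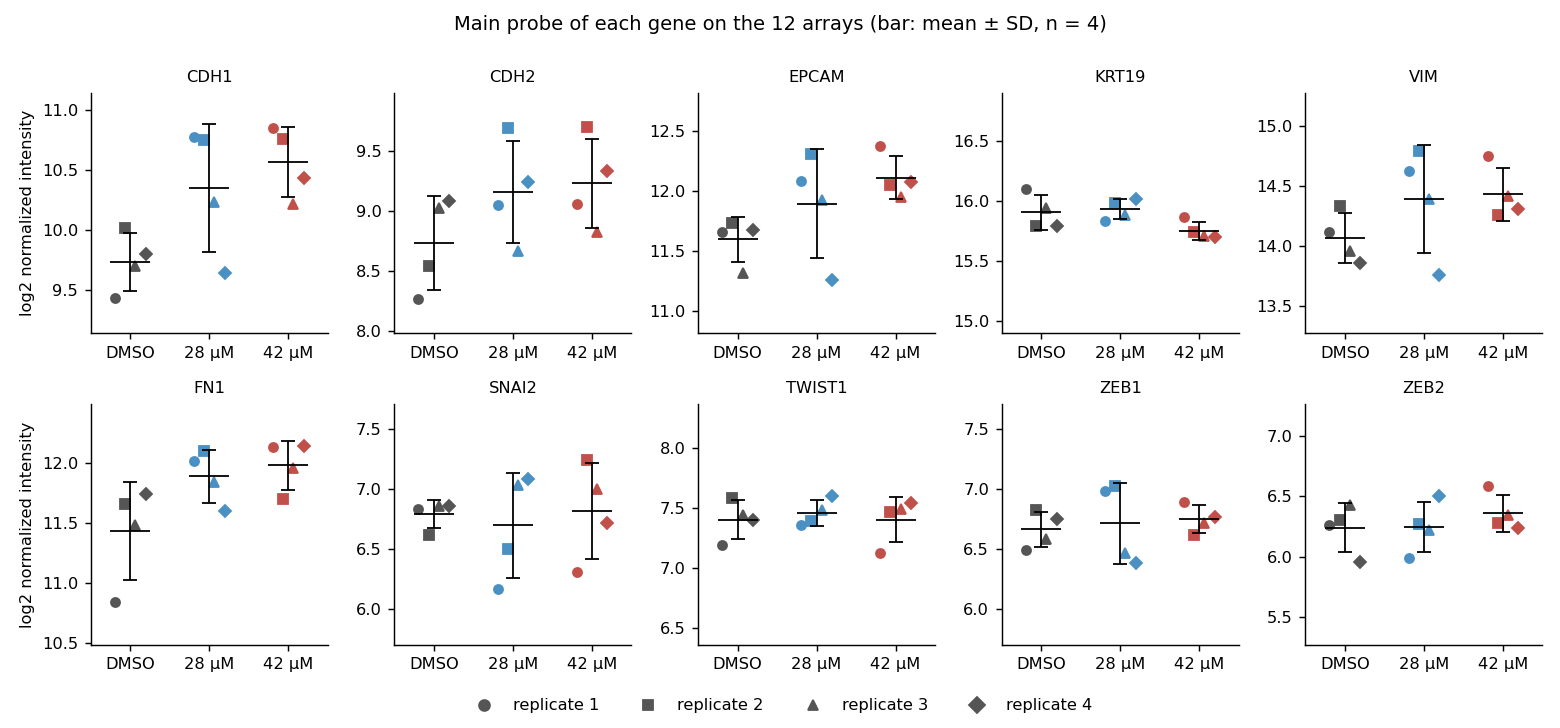
Log2 normalized intensity of the main probe of each of the 10 genes on the 12 arrays, by group on the horizontal axis. Each symbol is 1 replicate and the bar is mean ± SD (n = 4), and every vertical axis spans the same range of log2 units. At 42 µM the arrays of CDH1 and EPCAM lie above all DMSO arrays, and 28 µM replicate 4 lies low for CDH1, EPCAM, VIM and FN1.

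CDH1, the gene for E-cadherin, had the largest difference from DMSO among the 10 genes at each dose. Its probe (A_23_P206359, chr16:68869214-68869273, plus strand) read 9.43, 10.01, 9.70 and 9.80 on DMSO, 10.78, 10.75, 10.24 and 9.64 at 28 µM and 10.85, 10.76, 10.22 and 10.44 at 42 µM, replicates 1 to 4 each. All 42 µM arrays lay above all DMSO arrays, while 28 µM replicate 4 lay among them. The mean went from 9.74 ± 0.24 (SD, n = 4) to 10.35 ± 0.53 at 28 µM, a change of 0.62 (SE 0.24), limma adjusted p = 0.356. At 42 µM it was 10.57 ± 0.29, a change of 0.83 (SE 0.24) or 1.78-fold, limma adjusted p = 0.0807, which misses the threshold.

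Whether CDH1 was called depended on the model as well as on 28 µM replicate 4. At 42 µM it was called with the replicate number as a block (limma adjusted p = 0.0417). That fit called 1366 of the 33467 tested probes, against 885 in the main fit. CDH1 was also called in a fit of only the 42 µM and DMSO arrays (limma adjusted p = 0.0213). The count of all probes called in that second fit is not given here, so the call stands without a share beside it. Without 28 µM replicate 4 the CDH1 change was 0.85 at 28 µM (SE 0.19, limma adjusted p = 0.0404) and 0.83 at 42 µM (SE 0.18, limma adjusted p = 0.0190), and CDH1 was called at both doses. In that fit 2.15% of all probes were called at 28 µM and 3.65% at 42 µM. The change at 42 µM was the same with and without that array, since the same DMSO and 42 µM arrays set it, and the SE differed. Within the slides that held both groups, CDH1 differed from DMSO by 0.80, 0.98 and -0.05 at 28 µM and by 1.05, 1.06 and 0.21 at 42 µM. With the slide as a fixed block the CDH1 change at 42 µM was 0.73 (SE 0.24), limma adjusted p = 0.186. With the slide as a random block it was 0.80 (SE 0.22), limma adjusted p = 0.0586, and CDH1 was called in neither fit.

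The CDH1 probe is printed as 10 spots per array, and the median SD over its spots was 0.16 log2 units. Over the 12 arrays 17 of these spots carried an outlier flag and were left out. Keeping them gave 0.79 at 42 µM, limma adjusted p = 0.118.

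EPCAM encodes an adhesion molecule of epithelial cells. Its values were 11.66, 11.73, 11.32 and 11.68 on DMSO, 12.08, 12.31, 11.92 and 11.26 at 28 µM and 12.37, 12.05, 11.95 and 12.07 at 42 µM. The 42 µM arrays all lay above the DMSO arrays, and 28 µM replicate 4 read lowest of all 12. The change was 0.30 (SE 0.20) at 28 µM and 0.51 (SE 0.20) at 42 µM, with limma adjusted p = 0.603 and 0.204. Without 28 µM replicate 4 it was 0.51 at both doses, with limma adjusted p = 0.111 and 0.0548, still not called.

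CDH2, the gene for N-cadherin, read 8.27, 8.54, 9.03 and 9.09 on DMSO, 9.05, 9.69, 8.67 and 9.24 at 28 µM and 9.06, 9.70, 8.83 and 9.33 at 42 µM. The 3 groups overlapped, and the DMSO arrays alone spread over 0.39 (SD). The change was 0.43 (SE 0.25) at 28 µM and 0.50 (SE 0.25) at 42 µM, limma adjusted p = 0.549 and 0.367. A fit that held the slide as a fixed block gave 0.26 and 0.27. The 95% confidence interval at 42 µM, -0.03 to 1.03, leaves room for a doubling as well as for no change, so these arrays did not settle the direction.

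KRT19, a keratin of simple epithelia and bile duct cells, stayed within a narrow band, with lowest and highest values of 15.79 and 16.10 on DMSO, 15.84 and 16.02 at 28 µM and 15.70 and 15.86 at 42 µM. The change was 0.03 (SE 0.11) at 28 µM and -0.15 (SE 0.11) at 42 µM, limma adjusted p = 0.947 and 0.570. The sign at 28 µM turned when arrays were scaled to the 75th percentile instead of quantile normalized, to -0.26 for the processed signal and -0.25 for the Edwards values. At 42 µM the same scalings gave -0.33 and -0.35, limma adjusted p = 0.285 and 0.250, and leaving out DMSO replicate 1 gave -0.09.

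VIM, the gene for the mesenchymal intermediate filament vimentin, has 2 probes. The probe A_23_P161194 (chr10:17277185-17277244, plus strand) read 13.64, 13.81, 13.82 and 13.72 on DMSO, 14.39, 14.42, 14.19 and 13.87 at 28 µM and 14.50, 14.34, 14.24 and 13.95 at 42 µM. At both doses all arrays lay above all DMSO arrays, where 5.36% of all probes did not overlap at 28 µM and 12.3% at 42 µM, in either direction. The change was 0.47 (SE 0.15) at 28 µM, limma adjusted p = 0.255, and 0.51 (SE 0.15) at 42 µM, limma adjusted p = 0.0828. Without 28 µM replicate 4 the adjusted p was 0.0474 at 28 µM and 0.0383 at 42 µM, with changes of 0.58 and 0.51 that stayed under the limit of 0.6. Without 42 µM replicate 4 the change at 42 µM was 0.61, limma adjusted p = 0.0462, and the probe was called. That array read lowest at 42 µM for this probe, so leaving it out had to raise the change. The call is a description and adds no support. Leaving out 1 array at a time called 0 to 1221 of all 33467 tested probes at 42 µM.

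The junction probe of VIM, A_23_P161190, read 14.12, 14.33, 13.95 and 13.86 on DMSO, 14.62, 14.79, 14.39 and 13.76 at 28 µM and 14.75, 14.25, 14.42 and 14.31 at 42 µM. DMSO replicate 2 lay inside the treated range, and the groups overlapped. The change was 0.33 (SE 0.20) and 0.37 (SE 0.20), limma adjusted p = 0.580 and 0.433. Both VIM probes had 28 µM replicate 4 as the lowest array of its group. Without it the change of A_23_P161190 at 28 µM was 0.54 (SE 0.16), limma adjusted p = 0.116, and the 28 µM arrays lay above all DMSO arrays, while without 28 µM replicate 2 it was 0.19.

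The VIM differences were smaller when the arrays were scaled to the 75th percentile instead of quantile normalized. For A_23_P161190 the change was then 0.09 to 0.10 at 28 µM and 0.15 to 0.16 at 42 µM. For A_23_P161194 it was 0.26 at 28 µM with Edwards values, and 0.28 with the processed signal and 0.29 with Edwards values at 42 µM, limma adjusted p = 0.517 and 0.523.

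**Figure D2:**
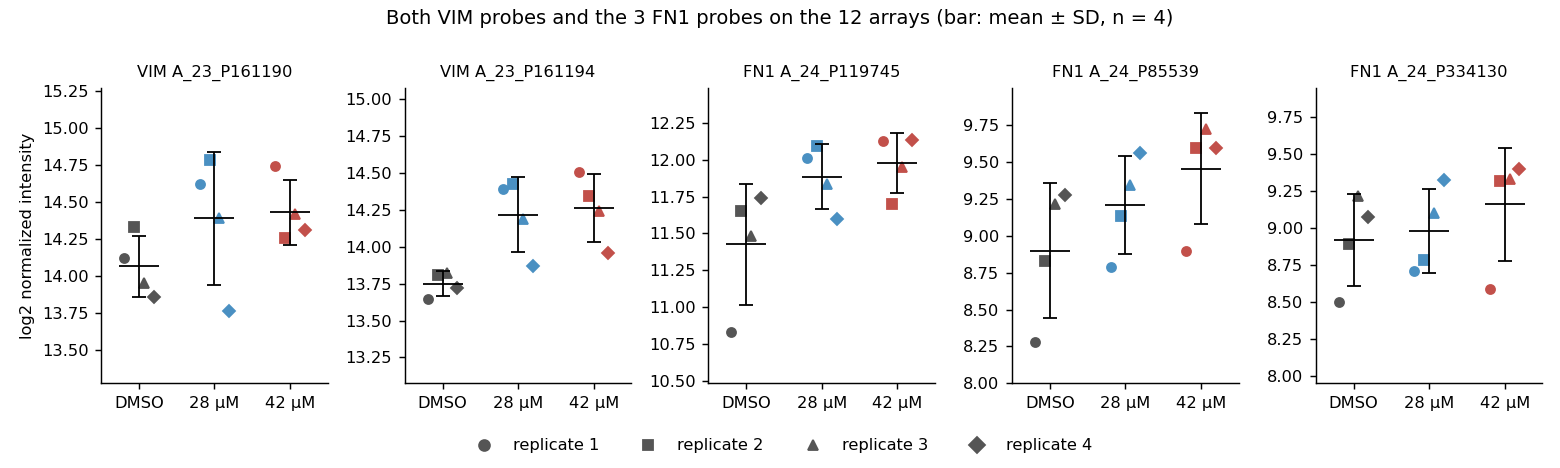
Log2 normalized intensity of both VIM probes and the 3 FN1 probes on the 12 arrays, by group; each symbol is 1 replicate, the bar is mean ± SD (n = 4) and every axis spans the same range. VIM A_23_P161194 is higher on every treated array than on any DMSO array, and the FN1 probes A_24_P85539 and A_24_P334130 have replicate 1 as the lowest array of each group.

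FN1 encodes fibronectin, a protein of the extracellular matrix. Its probe near the end of the gene, A_24_P119745, read 10.84, 11.65, 11.48 and 11.74 on DMSO, 12.01, 12.09, 11.83 and 11.60 at 28 µM and 12.13, 11.70, 11.95 and 12.13 at 42 µM. DMSO replicate 1 was the lowest array and the groups overlapped. The change was 0.46 (SE 0.19) at 28 µM and 0.55 (SE 0.19) at 42 µM, limma adjusted p = 0.399 and 0.156. Without DMSO replicate 1 it was 0.26 and 0.35, limma adjusted p = 0.701 and 0.352. Without 28 µM replicate 4 the change at 28 µM was 0.55 (SE 0.20), limma adjusted p = 0.200, and the 28 µM arrays lay above all DMSO arrays.

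The middle FN1 probe, A_24_P85539, had 8.28, 8.83, 9.21 and 9.28 on DMSO and 8.90, 9.59, 9.72 and 9.59 at 42 µM, with a change of 0.55 (SE 0.24), limma adjusted p = 0.292. The probe nearest the start of FN1, A_24_P334130, had 8.50, 8.90, 9.22 and 9.07 on DMSO and 8.59, 9.32, 9.33 and 9.40 at 42 µM, with a change of 0.24 (SE 0.21), limma adjusted p = 0.684. At 28 µM these probes differed from DMSO by 0.31 (SE 0.24) and 0.06 (SE 0.21), and by 0.19 and -0.06 without 28 µM replicate 4. Without DMSO replicate 1 A_24_P85539 differed by 0.10 at 28 µM and 0.34 at 42 µM. In both, replicate 1 was the lowest array in all 3 groups. Within slide 2, the FN1 differences between 42 µM replicate 1 and DMSO replicate 4 were 0.38 for A_24_P119745 but -0.38 for A_24_P85539 and -0.48 for A_24_P334130, so the probes disagreed in sign there. On the other slides with both groups all 3 FN1 differences were positive at 42 µM, from 0.10 to 0.38 on slide 4 and from 0.30 to 0.89 on slide 5. The difference between the probes was not tested.

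SNAI2, TWIST1, ZEB1 and ZEB2 encode transcription factors that repress E-cadherin. Their probes gave dim signals, close to those of the negative control spots, where a change is measured less well. The raw mean intensity of the ZEB1 probe (A_23_P202013, chr10:31812939-31812998, plus strand) was 1.17 to 1.93 times the 95th percentile of the 153 negative control spots of the same array. For the main SNAI2 probe (A_23_P169039) this ratio was 1.26 to 2.17, for the TWIST1 probe A_23_P71067 1.62 to 2.83 and for the ZEB2 probe A_23_P142560 1.06 to 1.45. Each was flagged as well above background on 4 arrays of every group, except ZEB2, which was detected on 3 of 4 in each.

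ZEB1 read 6.50, 6.82, 6.59 and 6.75 on DMSO, 6.98, 7.03, 6.47 and 6.38 at 28 µM and 6.90, 6.61, 6.71 and 6.77 at 42 µM, and all groups overlapped. Its change was 0.05 (SE 0.16) at 28 µM and 0.08 (SE 0.16) at 42 µM. The 95% confidence interval at 42 µM ran from -0.25 to 0.42, limma adjusted p = 0.882.

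TWIST1 differed from DMSO by 0.06 (SE 0.13) at 28 µM and 0.00 (SE 0.13) at 42 µM, with a 95% confidence interval of -0.27 to 0.27 at the higher dose, limma adjusted p = 0.999. ZEB2, a relative of ZEB1, differed by 0.01 (SE 0.14) and 0.12 (SE 0.14), with an interval of -0.18 to 0.43 at 42 µM, limma adjusted p = 0.780. SNAI2, which encodes the repressor SLUG, differed by -0.09 (SE 0.22) and 0.02 (SE 0.22), with an interval of -0.45 to 0.50 at 42 µM, limma adjusted p = 0.979. Without 28 µM replicate 4 the differences at 28 µM were -0.22 for SNAI2, 0.16 for ZEB1, -0.08 for ZEB2 and 0.01 for TWIST1, none of them called. SNAI2 had the wider spread, since its 28 µM arrays ran from 6.17 to 7.08 and its DMSO arrays only from 6.62 to 6.86.

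The other probes of these factors were at or near background. SNAI2 A_24_P937139 was detected on 0, 1 and 1 arrays of DMSO, 28 µM and 42 µM, TWIST1 A_23_P71073 on 0 arrays of every group and ZEB2 A_23_P407203 on 0, 1 and 0, and these 3 were left out of the test. ZEB2 A_24_P367454 was tested and was detected on 1, 2 and 0 arrays. It was not well above background on any 42 µM array, so no fold is given. Its measured means were 6.06 on DMSO and 5.91 at 42 µM, limma adjusted p = 0.765.

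**Figure D3:**
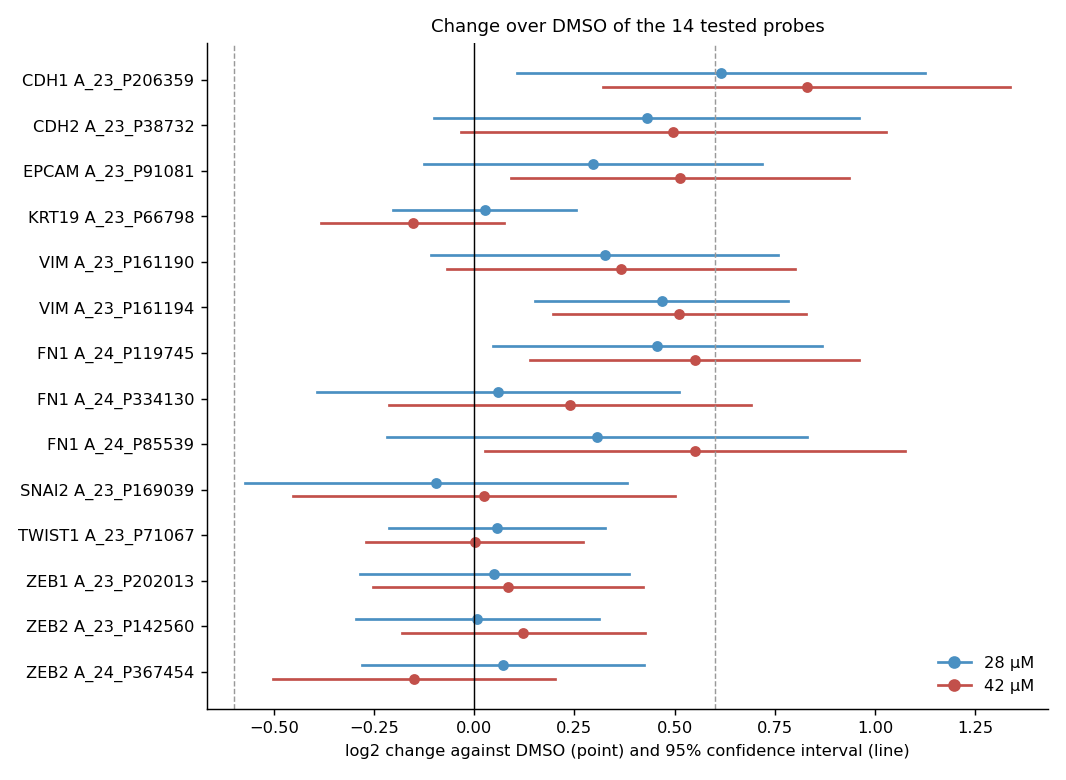
Log2 change against DMSO of the 14 tested probes at 28 µM and 42 µM (points) with the 95% confidence interval of the fit (lines), the dashed lines marking the limit of 0.6. CDH1 lies past the limit at both doses, whereas the probes of SNAI2, TWIST1, ZEB1 and ZEB2 lie between -0.15 and 0.12. The -0.15 is that of ZEB2 A_24_P367454 at 42 µM, where no array detected it.

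Taking 1 main probe per gene, 9 of the 10 differences were positive at 28 µM and 9 of 10 at 42 µM, with medians of 0.18 and 0.25. Over all 24168 tested genes 10977 and 11050 were positive, and the median was -0.02 at each dose. The 9 at 42 µM include TWIST1, SNAI2, ZEB1 and ZEB2, whose dim probes differed by 0.00 to 0.12, each less than its SE. Both comparisons use the same DMSO arrays, so their values are not independent. With the arrays scaled to the 75th percentile 8 of 10 were positive at 28 µM, and the median at 42 µM was 0.11 for Edwards values. At 42 µM 2 of the 10 main probes, CDH1 and EPCAM, did not overlap DMSO, against 12.9% of all tested genes by their brightest probe. At 28 µM 0 of 10 lay apart from DMSO, against 5.71%. The 0 rests on 28 µM replicate 4. Without that array 4 of 10, CDH1, EPCAM, VIM and FN1, lay above DMSO at 28 µM, against 14.4% of all probes with the same 3 arrays set against 4. The array left out was singled out by its small shift and read lowest at 28 µM for these 4 genes. The 4 of 10 is therefore a description and no added support. The positive differences included CDH1 and EPCAM, usually counted as epithelial, and VIM, FN1 and CDH2, usually counted as mesenchymal. KRT19, also counted as epithelial, differed by -0.15 at 42 µM. Hepatocytes carry both cadherins, as said above, so these labels do not place the cells between the states.

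Between the doses the members differed by little. The main probes ranged from -0.18 for KRT19 to 0.22 for EPCAM, 42 µM minus 28 µM, and limma's adjusted p was 0.9995 for every member. No member had groups that did not overlap between the doses, where 1.48% of all probes did. For CDH1 the difference was 0.21 with a 95% confidence interval of -0.29 to 0.72, which does not show that the doses act alike.

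Other epithelial genes were taken from lists. At 42 µM, of 40 tested junction and cytoskeleton genes 1 was called higher and 1 lower, with a median log2 change of 0.04. AP1M2, a subunit of the epithelial sorting adaptor that directs proteins to the basolateral membrane, rose by 0.73 (SE 0.15), from 10.59 ± 0.15 to 11.32 ± 0.31 (SD, n = 4), limma adjusted p = 0.0258. CGN, the gene of the tight junction protein cingulin, fell by 0.69 (SE 0.16), from 10.97 ± 0.24 to 10.28 ± 0.25, limma adjusted p = 0.0347. Of 17 tested regulators of the epithelial state 2 were called higher and 1 lower, with a median of 0.02. ELF3, an epithelial ETS factor, rose by 0.86 (SE 0.22), and KLF4, a factor of differentiating epithelia, rose by 0.85 (SE 0.18), limma adjusted p = 0.0478 and 0.0268. KLF5, a related factor of proliferating epithelia, fell by 0.78 (SE 0.18), limma adjusted p = 0.0400.

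Of the mesenchymal lists few genes were called. Among 19 further transcription factors HMGA2, a chromatin protein of fetal and tumour cells, fell by 0.79 (SE 0.17), from 12.01 ± 0.17 to 11.23 ± 0.32, limma adjusted p = 0.0274, and no other was called (median -0.05). Among 47 matrix, cytoskeleton and surface genes DAB2, an endocytic adaptor that also acts in TGF-beta signalling, rose by 1.42 (SE 0.28), from 9.35 ± 0.21 to 10.77 ± 0.36, limma adjusted p = 0.0188. LOX, the enzyme that crosslinks collagen, fell by 0.61 (SE 0.15), limma adjusted p = 0.0428, and the median of that list was -0.06. Of 17 integrins and other partners of fibronectin, 0 were called by limma and 0 passed the unadjusted p with the same limit (median 0.04).

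Of 36 genes of the TGF-beta pathway, a main inducer of the transition, 0 were called higher and 2 lower, with a median of -0.00. The changes ran from -1.35 to 1.10, and 17 of the 36 were positive. By the unadjusted p with the same limit 5 passed, namely CCN2, JAG1, BAMBI, LTBP1 and SKIL. CCN2, the connective tissue growth factor gene listed as CTGF on the array, fell by 1.35 (SE 0.28), from 12.16 ± 0.23 to 10.81 ± 0.47, limma adjusted p = 0.0236. JAG1, a Notch ligand, fell by 0.62 (SE 0.16), limma adjusted p = 0.0490. Of 15 biliary and progenitor genes and 14 hepatocyte genes 0 were called by limma, with medians of -0.05 and 0.07, and 2 (KRT23 and SPP1) and 0 passed the unadjusted p with the same limit. Over all 24168 tested genes 381 were called higher and 343 lower, which is 3.00%. Beside it stand 5% of the junction genes, 17.6% of the epithelial regulators, 5.26% of the mesenchymal factors, 4.26% of the matrix list and 5.56% of the TGF-beta list, each a count of 1 to 3 genes. By the unadjusted p with the same limit, 3 junction genes, 3 epithelial regulators, 1 mesenchymal factor and 5 genes of the matrix list passed at 42 µM. Of all probes 5.02% did. None of the listed genes was called by limma at 28 µM or between the doses.

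These list counts moved with the slide and with single arrays. With the slide as a fixed block limma called 1 probe of the whole array at 42 µM and none of the 10 listed genes, whose adjusted p were then 0.0671 to 0.124, while 1710 probes passed the unadjusted p with the same limit. All 10 kept their direction in that fit, and with the slide as a random block all 10 were called. Without DMSO replicate 2, or without 42 µM replicate 2, limma called 0 probes at 42 µM, so no listed gene was, although 1654 and 1449 probes passed the unadjusted p with the same limit and the smallest adjusted p were 0.0505 and 0.0522. Without 28 µM replicate 4, DAB2 was called at 28 µM too, with a rise of 1.38 (limma adjusted p = 0.00669), CCN2 fell by 1.12 (limma adjusted p = 0.0262) and KRT8, a keratin of simple epithelia, fell by 0.63 (limma adjusted p = 0.0239). In the same fit S100A4, KRT23 and SPP1 joined the called genes at 42 µM, with falls: S100A4 fell by 1.10, KRT23 fell by 0.98 and SPP1 fell by 0.70.

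**Figure D4:**
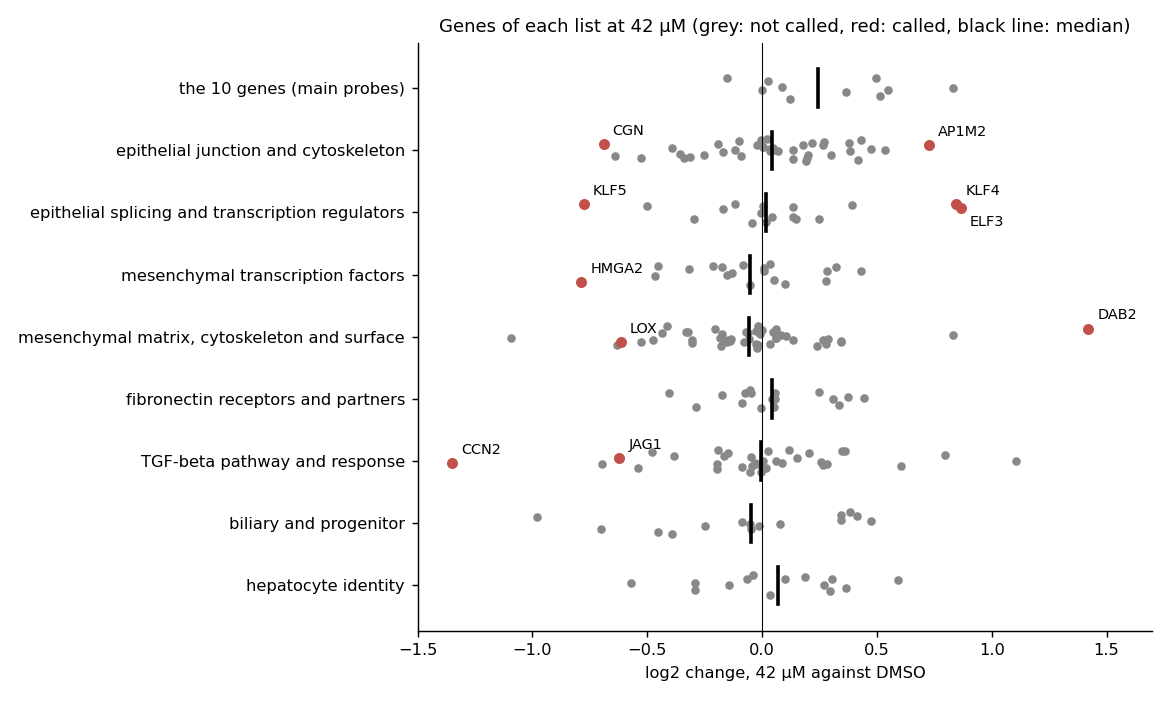
Log2 change at 42 µM against DMSO of the tested genes of each list, 1 point per gene, with called genes in red and named and the median as a black line; the list of other cell types is not drawn. The 10 genes have a median of 0.25 and no called gene. With Edwards values scaled to the 75th percentile that median was 0.11. Members and lists were chosen with earlier results of these data known, so their medians are set side by side as a description.

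The genes whose values over the 12 arrays were most like those of CDH1 were ZNF165, DDAH2 and GPR56, with Pearson's r of 0.98, 0.98 and 0.97. For FN1, taken by its probe A_24_P119745, they were PFDN2, NCKAP1 and B4GALT4, with r of 0.97, 0.92 and 0.91. These are the highest values among all tested genes and are given as a description. They hold the differences between groups and the arrays' shared deviations, such as that of 28 µM replicate 4.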

How the data were processed

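The authors deposited the Feature Extraction output (version 10.7.3.1 per the labels' processing notes) of each array, with mean and local background intensities before normalization, and a table of log2 values after Edwards background correction and quantile normalization. Here the deposited intensities were processed the same way with limma 3.58.1 in R 4.3.3, control and outlier spots were left out and spots of a probe averaged. Probes with 3 or 4 undetected arrays in each of the groups were dropped, which left 33467 of 41000 probes. One model of all 3 groups was fitted with lmFit and eBayes, two-sided, with Benjamini-Hochberg adjustment over all tested probes. For arrays, their number limits the precision.

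The members and the gene lists were chosen with earlier results of these data known. Named are all members with every probe, from each list the called genes, up to 8, and for the 2 members of smallest p at 42 µM by main probe the 3 most similar genes. The brightest probe stands for a gene. Genes named as called without 28 µM replicate 4, and FOXA1, were chosen after their values were seen. The fit was tested on simulated data. Probe positions are hg19 as the scanner files give them, and no gene annotation of that build was used here. Plots were made with Python 3.11.15 and matplotlib 3.10.9.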

Additional observations from a re-analysis of the deposited data

Results flagged for a closer look

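Of the 51 groups of 4 arrays formed by the 17 probes, 6 had 1 array far from the other 3 by Dixon's criterion at 95%, and chance alone flags about 1 in 20. All are log2 values. FN1 A_24_P334130 read 8.59 and FN1 A_24_P85539 read 8.90 on 42 µM replicate 1, below the other 42 µM arrays. SNAI2 A_23_P169039 read 6.62 on DMSO replicate 2, below the other DMSO arrays. The other values come from probes at or near background: TWIST1 A_23_P71073 read 5.68 on 42 µM replicate 3, above its group, ZEB2 A_23_P407203 read 5.52 on 42 µM replicate 2, below its group, and ZEB2 A_24_P367454 read 6.63 on 28 µM replicate 1, above its group.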

How the results depend on the processing

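Over 26 alternatives, 1067 of 1074 member values kept their side of the threshold and moved by less than the criteria for a change. No member was called in the main fit, so this count does not show stable sizes. Among values counted as kept, VIM A_23_P161190 at 28 µM went from 0.33 to 0.09 with the scaled processed signal. CDH2 at 42 µM went from 0.50 to 0.27 with the slide as a fixed block. Others grew, such as EPCAM at 28 µM, from 0.30 to 0.51 without 28 µM replicate 4. With the strict filter both ZEB2 probes were dropped, and with the brightest probe per gene the dimmer probes have no value. The values outside the 1067 were the CDH1 and VIM calls below and KRT19 at 28 µM under the 75th percentile scalings, given above. At 42 µM 1 member, CDH1, was called with the replicate number as a block (limma adjusted p = 0.0417) and with only the 2 groups compared in the model (limma adjusted p = 0.0213), and leaving out 1 array at a time gave 0 to 1 members called by their main probe at 28 µM and at 42 µM, where 28 µM replicate 4 gave the 1. The second probe of VIM, A_23_P161194, was also called at 42 µM without 42 µM replicate 4, the lowest 42 µM array of that probe. Over the arrays left out, CDH1 at 42 µM ranged from 0.73 to 0.94, limma adjusted p = 0.0190 to 0.235. With the replicate block, FN1 A_24_P85539 and VIM A_23_P161194 had limma adjusted p = 0.0215 and 0.0392 at 42 µM, with changes of 0.55 and 0.51 that missed the limit of 0.6.

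The count of probes called at 42 µM was 1 with the slide as a fixed block, 1366 with the replicate block, 366 with a log2 limit of 1 and 0 to 1221 when 1 array was left out. The 0 came without DMSO replicate 2 or 42 µM replicate 2, and the counts without the other DMSO arrays were 258, 447 and 321 for replicates 1, 3 and 4. They were 499 and 553 without 42 µM replicates 1 and 3. At 28 µM the count was 2 with the replicate block and 0 to 719 when 1 array was left out, the 719 without 28 µM replicate 4. The cause was not tested, apart from the log2 limit, which removes small changes by construction. Whether the replicate numbers pair the samples was not settled. Same-numbered arrays of 2 groups had deviations correlated from -0.46 to 0.62, and 5 of 12 arrays were closest to their own number. The 0.62 came from 28 µM and 42 µM replicate 1, which share slide 2, so number and slide are mixed there. Keeping outlier spots was chosen after seeing the data. The dim probes of SNAI2, TWIST1, ZEB1 and ZEB2 limit what can be said of these factors.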
